A study of Mus musculus with 20 samples.

Results

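The genes described here are those of the mouse whose symbols carry the names given to regulators of cell division: the stems Mcm, Cdc, Cdk and Cdca with a digit, the cyclin stems Ccna, Ccnb, Ccnd and Ccne with a digit, and Chek1, Chek2 and Pcna. They were chosen by symbol alone, from clones annotated to 1 gene. The rule uses no measured value, but it was set with earlier results of these data known. Together 63 of the 6970 named genes on the arrays met the rule, 34 of 3838 on the first array design and 39 of 4075 on the second, and 10 had clones on both. A shared stem is not a shared function. By textbook role, 34 of the 63 act in the division cycle itself and 29 have other main roles, such as Cdc42 in the cytoskeleton or Cdc73 in transcription, and the 2 sets are kept apart below.

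A cell that divides first commits to doing so through cyclin D bound to Cdk4 or Cdk6, copies its DNA under cyclins E and A bound to Cdk2, and enters mitosis under cyclins A and B bound to Cdk1. Copying starts where Cdc6 helps load the ring of Mcm proteins, the helicase that opens the double helix, and Pcna is the clamp that holds the polymerase on the DNA. Chek1 and Chek2 halt the cycle when DNA is damaged. Most hepatocytes of an adult liver and most mature brown adipocytes are not dividing, so these transcripts are usually scarce in both tissues.

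RNA of 2 mouse lines was compared directly on spotted 2-colour cDNA arrays, 10 of each of 2 designs. The F line is a selection line bred for obesity, and the Fob3b line has that background with lean-line alleles at an obesity locus called Fob3b. Liver and brown adipose tissue were each represented by 2 pools of total RNA per line, and ages, sexes and the number of animals in a pool are not stated. Each pool of the Fob3b line was hybridised against the F pool of the same number in both dye orientations: liver pairs 1 and 2 and brown adipose pairs 1 and 2 on the first design, and liver pairs 1 and 2 and brown adipose pair 1 alone on the second. The first design also held liver pool 1 of each line against itself. The second design also held 2 liver arrays with the pool numbers crossed between the lines and 2 arrays of pool 2 against pool 1 within a line. Lines were taken from the channel labels. The free-text description goes against them for both brown adipose arrays of the second design, where it names the F line on both sides, and for the Fob3b self array, where it names both lines. If the description holds, no brown adipose ratio of the second design carries a line difference, and the results without those 2 arrays are those of the first design and of liver.

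Every value below is a log2 ratio relative to the median clone of its array, with the Fob3b line on the positive side if red was divided by green; the numerator is not stated, and all signs would turn together if it was green. The pair of spots of a clone correlated at 0.76 to 0.93 on the arrays of the first design and at 0.64 to 0.87 on the second, and the spread over clones was wider on the first design (SD 0.32 to 0.63) than on the second (0.16 to 0.30). Log ratios hold no expression level, so whether a transcript was detectable, and whether the tissue carried its defining markers, could not be read from them. In whole tissue, fewer dividing cells and less of a transcript per cell cannot be told apart.

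No member differed between the lines past the threshold (limma, adjusted p under 0.05 over all genes of a design) in liver or brown adipose tissue of the first design, in the difference between those tissues, or in liver of the second design. The share of all genes called was 0% in each comparison of the first design and 0.27% (11 genes) in liver of the second. At an unadjusted p under 0.05 there were 2 of 34 members in liver of the first design against 2.68% of all genes, 0 of 34 in brown adipose tissue against 1.02%, 3 of 34 in the tissue difference against 2.94%, and 5 of 39 in liver of the second design against 9.99%. These are Chek2 and Cdk16, then Chek2, Cdca7 and Cdc73, then Mcm6, Cdk2, Ccnb2-ps, Cdca7l and Cdk20. A p-value here rests on the spread between pool pairs, drawn by limma towards a spread typical of all genes. That prior had 10.2 degrees of freedom against 2 residual on the first design, where both tissues share 1 spread per gene. On the second it had 10.4 against 1. Standard errors and intervals below rest on the same mixed spread, and nothing in the labels says how many animals stand behind it.

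The absence of calls comes with stated intervals. On the first design the 95% limma interval of a member had a median half-width of 0.42 in either tissue (1.34-fold), and all 34 members stayed within a 2-fold difference in both tissues; 21 of 34 stayed within 1.5-fold in each, against 58.7% of all genes in liver and 66.3% in brown adipose tissue. On the second design the median half-width in liver was 0.18 (1.13-fold), and the interval of each of the 39 members lay within 1.5-fold, as did that of 98.7% of all genes. Liver ratios over all genes were also smaller on that design (median size 0.06 against 0.12), so the widths do not show which design measured better. The difference between tissues had wider intervals: its median half-width was 0.59, and 28 of 34 members stayed within 2-fold, against 80.6% of all genes. These bounds are for measured ratios, and whether each transcript was detectable is not known.

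**Figure D1:**
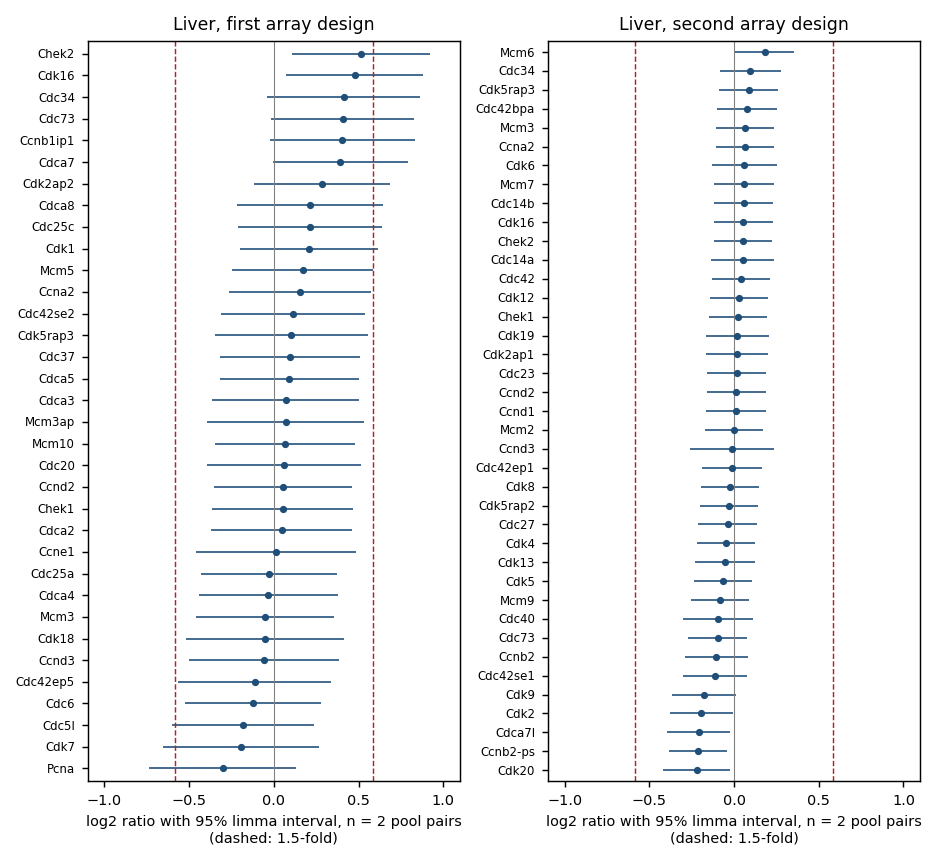
Liver log2 ratio of each member, Fob3b over F if red is divided by green, with its 95% limma interval, on the first (34 genes) and second (39 genes) array design, n = 2 pool pairs each; dashed lines mark 1.5-fold. Intervals on the second design all lie inside the dashed lines, and those of 21 of 34 members do on the first.

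Of the 4 sets of line ratios, liver of the first design had the members farthest from all genes. Their median there was 0.07 with 24 of 34 (70.6%) on the positive side, against -0.02 and 45.4% for all genes, and it ran from -0.0052 to 0.11 when single arrays or pairs were left out. Without centring both medians were negative, at -0.02 for the members and -0.11 for all genes. The members' liver median on the second design was 0.01 with 20 of 39 positive (all genes 0.0050 and 51.8%). In brown adipose tissue the medians were 0.01 on the first design (18 of 34 positive; all genes 0.04 and 60.2%) and 0.06 on the second (22 of 39; 0.03 and 57.5%). Members that act in the cycle and those with other roles had liver medians of 0.06 and 0.11 on the first design and of 0.01 and -0.02 on the second. Across members the ratios of pool pair 1 and pool pair 2 were close to unrelated. Pearson's r on the first design (34 genes) was 0.06 in liver and 0.04 in brown adipose tissue, and on the second (39 genes) 0.05 in liver. Over all genes r was -0.21 in liver and -0.22 in brown adipose tissue of the first design, and 0.21 in liver of the second. The 2 values of each gene share a clone and a printing position.

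Signs repeated across every array for few members. In liver of the first design 6 of 34 were positive on all 4 arrays (Ccnb1ip1, Cdca7, Cdk1, Cdk16, Cdk2ap2 and Chek2), where 4.85% of all genes were, and 1, Cdc5l, was negative on all 4 (3.41%). Brown adipose tissue of that design had 1 member positive on all 4 arrays, Pcna (3.41% of all genes), and 1 negative, Cdca7 (2.79%). Liver of the second design had 1 positive, Mcm6 (9.99%), and 2 negative, Cdk2 and Ccnb2-ps (8.96%). On the 2 brown adipose arrays of the second design, from 1 pool pair and so without a test, 18 of 39 were positive on both (38.0% of all genes) and 10 negative on both (25.5%), and 0 of 39 had 1 sign and a mean past 1.5-fold (1.45%).

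**Figure D2:**
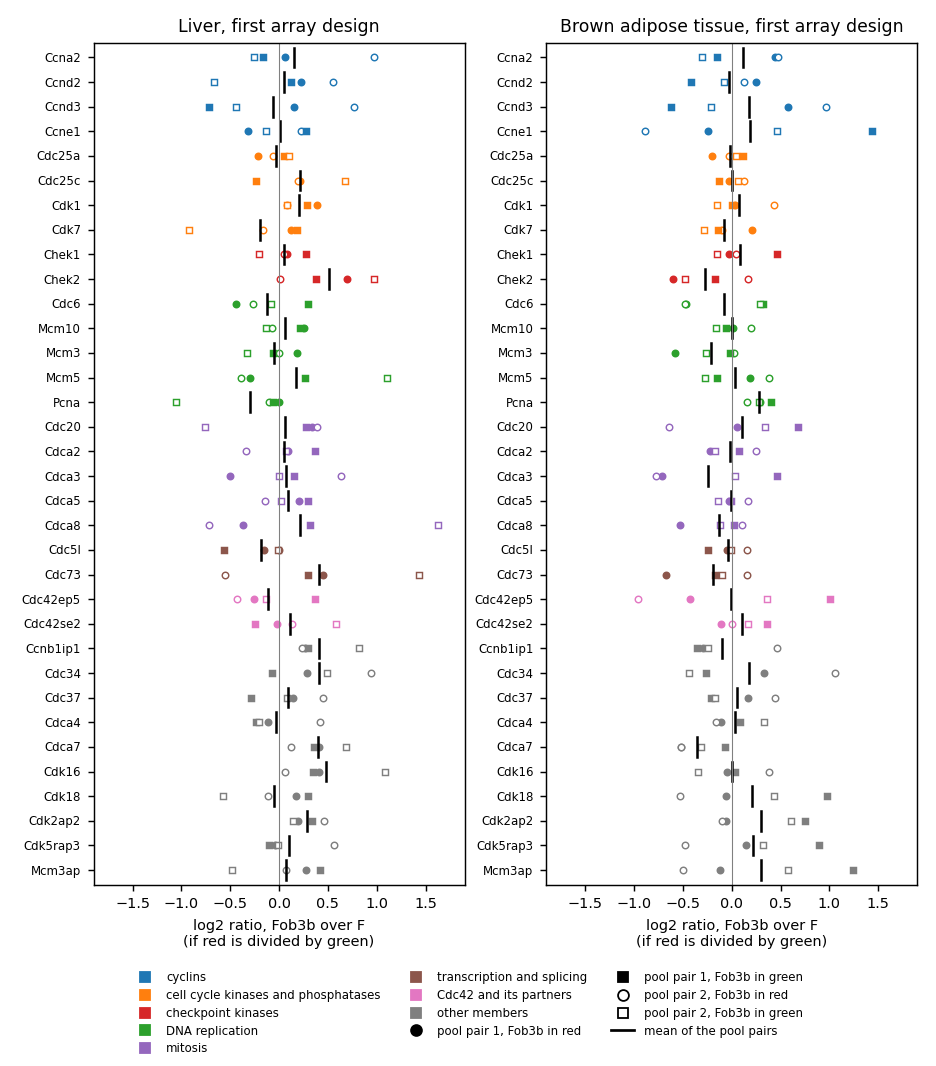
Log2 ratio of each of the 34 members on each array of the first design, liver left and brown adipose tissue right, coloured by role; filled symbols are pool pair 1, open symbols pool pair 2, circles the array with Fob3b in red, squares that with Fob3b in green, and bars the mean of the 2 pool pairs. Single arrays reach past 1 for several members, such as Cdca8 at 1.63 and Cdc73 at 1.43 in liver, while the highest mean is 0.51 (Chek2, liver).

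Swapping the dyes changed the sign of many members. In brown adipose pool pair 2 of the first design, 29 of 34 members changed sign when the dyes were swapped, against 72.1% of all genes, and the median size of the part that follows the dye was 0.30 against 0.09 for the part that follows the line. The count was 22 of 34 in brown adipose pair 1 (56.4% of all genes), 14 of 34 in liver pair 1 (45.3%) and 16 of 34 in liver pair 2 (59.6%). It was 22 of 39 on the second design in liver pair 1 (50.2%), 19 of 39 in liver pair 2 (42.6%) and 11 of 39 in the brown adipose pair (36.5%). Members thus changed sign more often than genes at large in some pairs and less often in others, and the difference was not tested. For this reason both orientations are given below for each member described, Fob3b in red first, then Fob3b in green.

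The cyclins, the activating subunits of the cycle's kinases, gave no call. In liver their median was 0.03 on the first design (4 measured) and 0.01 on the second (5 measured). Ccna2, cyclin A2 of S phase and mitosis, read 0.06 and -0.17 in liver pair 1 and 0.97 and -0.26 in pair 2 of the first design, and -0.09 and 0.21, then 0.06 and 0.08, on the second. Its means were 0.15 ± 0.19 (limma SE, n = 2 pool pairs) and 0.06 ± 0.08, and 1 array with Fob3b in red stood well above the others. In brown adipose tissue Ccna2 was at 0.44 and -0.15 in pair 1 and 0.48 and -0.31 in pair 2 of the first design, high whenever Fob3b was red, and at 0.20 and 0.06 on the second.

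The D cyclins link growth signals to the start of the cycle. Ccnd2 in liver was at 0.22 and 0.12, then 0.55 and -0.67, on the first design and at 0.08 and 0.09, then -0.11 and 0.0054, on the second, where it is the mean of 5 clones that ranged from -0.05 to 0.10. Ccnd2 in brown adipose tissue was at 0.25 and -0.41, then 0.12 and -0.08, on the first design and at -0.11 and -0.02 on the second. Neither tissue gave it a sign that held on every array. Ccnd3 followed the dye on the first design, at 0.15 and -0.72, then 0.77 and -0.44, in liver and at 0.57 and -0.63, then 0.96 and -0.21, in brown adipose tissue, each time positive with Fob3b in red and negative with Fob3b in green. On the second design its liver pairs were opposed, 0.39 and 0.13 in pair 1 against -0.40 and -0.17 in pair 2, and its brown adipose pair read -0.20 and 0.23. The liver minus brown adipose difference of Ccnd3 was -0.23 ± 0.29, and it turned positive (0.06 to 0.07) when any of 3 arrays was left out: liver pair 2 with Fob3b in green, or either brown adipose array with Fob3b in red. Ccnd1 and Ccnb2, on the second design alone, had liver means of 0.01 and -0.10, and Ccne1, on the first alone, 0.01.

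Of the kinases and phosphatases that drive the cycle, Cdk2 came nearest to a difference. It is the partner of cyclins E and A during DNA synthesis. On the second design Cdk2 was negative on each of the 4 liver arrays, at -0.29 and -0.31 in pair 1 and -0.13 and -0.05 in pair 2, with a mean of -0.19 ± 0.08 (1.14-fold; limma adjusted p = 0.473). Pool pair 1 carried most of it, and the mean was -0.11 when printing blocks were centred and -0.12 when the arrays of crossed pools, at -0.11 and 0.14, joined the fit. Its brown adipose values, -0.14 and -0.08, were also negative.

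Cdk1, the kinase of mitosis, was positive on the 4 liver arrays of the first design with a mean of 0.21 ± 0.19, and its brown adipose mean was 0.08. Cdk7, which activates the other Cdks and also serves transcription, read 0.13 and 0.18 in liver pair 1 and -0.16 and -0.92 in pair 2, so that its mean of -0.19 came from pair 2 and was 0.15 without it. Brown adipose tissue gave Cdk7 values of 0.21 and -0.14, then -0.10 and -0.29. Cdk6, a cyclin D partner, was positive on both brown adipose arrays of the second design, at 0.38 and 0.15, and mixed in liver, at 0.05 and -0.19, then 0.34 and 0.05. The brown adipose mean of Cdk6 was 0.26, fell to 0.13 with printing blocks centred and was negative without centring. Cdk4, the other cyclin D partner, had liver and brown adipose means of -0.05 and -0.10, and its 2 clones read -0.35 and 0.14 in brown adipose tissue. Cdc14a, a phosphatase that reverses Cdk phosphorylation, read -0.21 and -0.20 in brown adipose tissue and 0.28 and 0.06, then -0.22 and 0.08, in liver; with printing blocks centred its brown adipose value was -0.0042. The Cdc25a and Cdc25c phosphatases, which switch Cdks on, had liver means of -0.03 and 0.21.

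Chek2, a kinase of the DNA damage checkpoint, had the smallest p of the members in liver of the first design. It read 0.70 and 0.38 in liver pair 1 and 0.0093 and 0.97 in pair 2, all on the positive side, with a mean of 0.51 ± 0.19 (1.43-fold; limma unadjusted p = 0.0170, adjusted p = 0.9998). One array, pair 2 with Fob3b in green, was the highest, and without it the mean was 0.27; with printing blocks centred it was 0.32. The same clone in brown adipose tissue read -0.60 and -0.17, then 0.17 and -0.48, with a mean of -0.27 ± 0.19, and -0.0025 without centring. The difference between the tissues was 0.79 ± 0.26 (limma unadjusted p = 0.0112, adjusted p = 0.998).

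The Chek2 clone of the second design gave smaller ratios on RNA labelled as the same pools. It read 0.07 and 0.02, then 0.16 and -0.05, in liver, with a mean of 0.05 ± 0.08. Its 95% interval there, -0.12 to 0.22, does not reach the first design's mean of 0.51 but overlaps the first design's interval, 0.11 to 0.92. In brown adipose pair 1 the second design's clone read 0.19 and 0.13, where the first design had -0.60 and -0.17. Chek1, the checkpoint kinase of stalled replication, had liver means of 0.05 and 0.02 on the first and second design. It read 0.08 and 0.28, then 0.05 and -0.20, in liver of the first design and 0.02 and 0.03, then -0.07 and 0.11, on the second. Brown adipose tissue gave Chek1 readings of -0.03 and 0.47, then 0.05 and -0.15, on the first design and of 0.0029 and -0.03 on the second.

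Among the genes of DNA replication, Mcm6 in liver of the second design was positive on every array. Mcm6 is a subunit of the ring helicase. It read 0.09 and 0.38 in pair 1 and 0.21 and 0.05 in pair 2, with a mean of 0.18 ± 0.08 (1.13-fold; limma unadjusted p = 0.0422, adjusted p = 0.473), which was 0.08 with printing blocks centred and -0.19 without centring, where the median of all genes was -0.36. Both brown adipose arrays had it on the positive side too, at 0.35 and 0.24. Without centring both values turn negative, since the median clone of these arrays was at -0.43 (Fob3b in red) and 0.31 (Fob3b in green, before turning) as deposited. The 2 crossed-pool liver arrays had Mcm6 at 0.16 and 0.09, and the 2 arrays within a line at 0.06 and 0.11.

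The other subunits of the ring did not share a direction. In liver, Mcm2 was at -0.00081, Mcm7 at 0.06 and Mcm5 at 0.17, with SEs of 0.08, 0.08 and 0.19. Mcm3 read 0.19 and -0.06, then -0.0054 and -0.32, on the first design (mean -0.05 ± 0.19) and -0.08 and 0.16, then 0.16 and 0.02, on the second (mean 0.07 ± 0.08). The brown adipose values of Mcm3 were -0.58 and -0.02, then 0.03 and -0.27, on the first design, a mean of -0.21 that was 0.06 without centring, and 0.42 and 0.04 on the second, so the clones disagreed in sign on pool pair 1.

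Pcna, the sliding clamp, had the largest tissue difference of the 5 replication genes on the first design, without passing the test. In liver it read 0.0016 and -0.06 in pair 1 and -0.10 and -1.05 in pair 2, a mean of -0.30 ± 0.20 that rested on the last array and was -0.06 without it. Brown adipose tissue had Pcna on the positive side of all 4 arrays, at 0.29 and 0.41, then 0.15 and 0.28, with a mean of 0.28 ± 0.20. The difference of -0.59 ± 0.28 did not pass (limma unadjusted p = 0.0603, adjusted p = 0.998) and was -0.19 with printing blocks centred, where the brown adipose mean was 0.03. Cdc6, the loader of the helicase, was lower with Fob3b in red than in green in each of the 4 pool pairs: -0.44 and 0.30, then -0.27 and -0.08, in liver and -0.46 and 0.32, then -0.48 and 0.29, in brown adipose tissue, with means of -0.12 and -0.08. Without liver pair 1 in the orientation with Fob3b in red the liver mean of Cdc6 was 0.06. Mcm9 and Mcm10, which share the stem but lie outside the ring, had liver means of -0.08 and 0.06.

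Members of mitosis gave no call either. Cdc20, Cdc23 and Cdc27 belong to the anaphase-promoting complex or activate it, Cdca8 to the chromosomal passenger complex, and Cdca5 holds sister chromatids together. On the first design 5 of 5 had liver means on the positive side, from 0.05 to 0.21 (median 0.07, all genes -0.02 with 45.4% positive). In brown adipose tissue 1 of 5 did (median -0.02, all genes 0.04 with 60.2% positive). The median of these 5 in liver was 0.23 in pool pair 1 and -0.06 in pool pair 2, but single members differed: Cdca3 was at -0.18 and 0.32 and Cdca8 at -0.03 and 0.45. The second design measured 3 other members of mitosis. There 1 of 3 was positive in liver (median -0.03, 51.8% of all genes positive) and 2 of 3 in brown adipose tissue (median 0.07, 57.5%). Cdca3, which triggers the breakdown of the mitosis inhibitor Wee1, read -0.72 and 0.47, then -0.77 and 0.03, in brown adipose tissue, and its mean of -0.25 ± 0.20 became 0.05 without pair 1 in the orientation with Fob3b in red and 0.02 without centring. In liver Cdca3 read -0.50 and 0.15, then 0.64 and -0.00034. Cdk5rap2, a centrosome protein, read -0.32 and -0.07 in brown adipose tissue and -0.14 and 0.02, then 0.14 and -0.14, in liver of the second design, and its brown adipose mean of -0.20 was -0.03 with printing blocks centred.

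**Figure D3:**
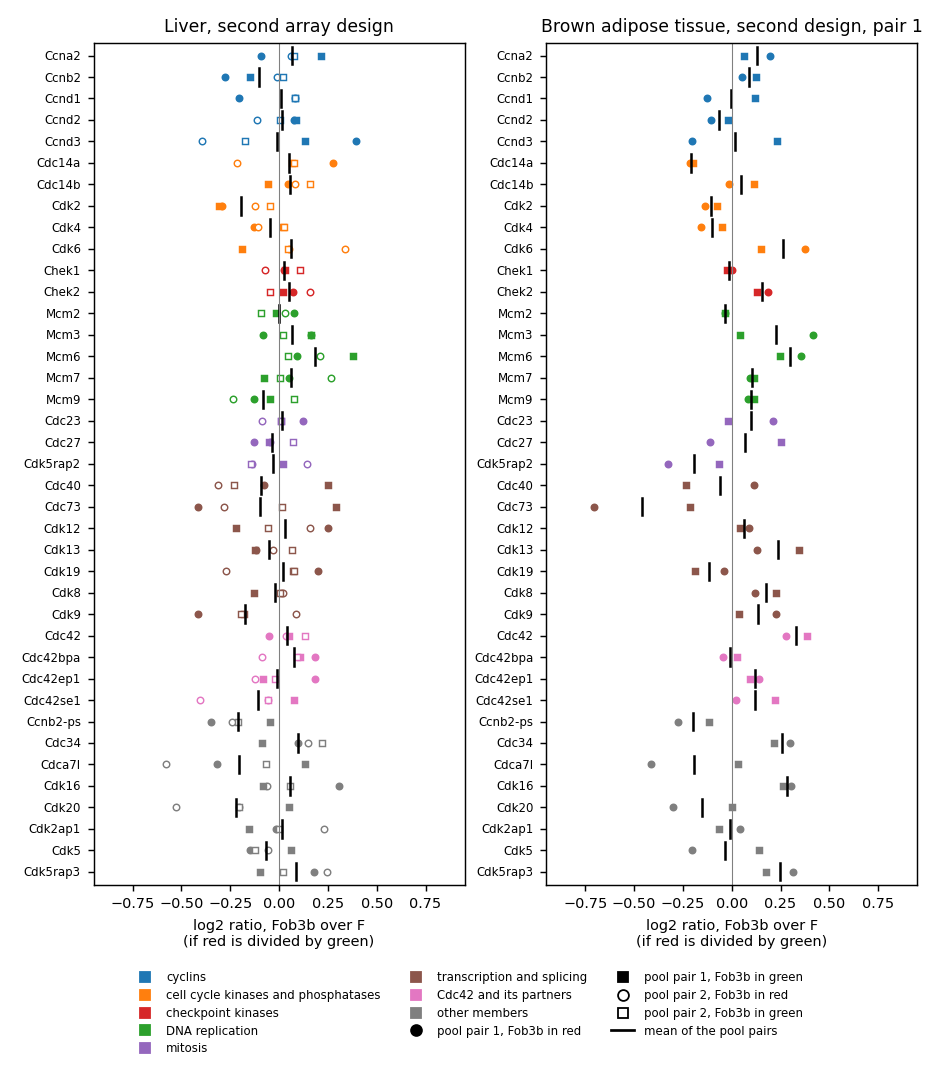
Log2 ratio of each of the 39 members on each array of the second design, liver left and brown adipose tissue (pool pair 1 alone) right, coloured by role; filled symbols are pool pair 1, open symbols pool pair 2, circles the array with Fob3b in red, squares that with Fob3b in green, and bars the mean. Liver means lie between -0.22 (Cdk20) and 0.18 (Mcm6), and the brown adipose value of Cdc73, at -0.46, is the lowest.

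Members of transcription and splicing were led by Cdc73, a subunit of the Paf1 complex that travels with RNA polymerase. In liver of the first design Cdc73 read 0.45 and 0.29 in pair 1 and -0.55 and 1.43 in pair 2. Its mean of 0.41 ± 0.19 became -0.09 without the array at 1.43 and was 0.26 with printing blocks centred. On the second design the liver clone read -0.41 and 0.29, then -0.28 and 0.01, with a mean of -0.10 ± 0.08 and a 95% interval of -0.27 to 0.08. In brown adipose pool pair 1, Cdc73 was negative on each of the 4 arrays of the 2 designs, at -0.68 and -0.17 on the first and -0.70 and -0.21 on the second. Pool pair 2, on the first design alone, read 0.16 and -0.10, and with printing blocks centred the second design's value of -0.46 was -0.16.

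Cdc5l, a splicing factor, was the 1 member on the negative side of all 4 liver arrays of the first design, at -0.15 and -0.57, then -2.8e-05 and -0.02, and its brown adipose values were -0.05 and -0.24, then 0.15 and -0.0053. Its 2 clones had liver means of -0.22 and -0.14. The kinases that phosphorylate RNA polymerase or belong to Mediator had liver means of -0.18 (Cdk9), -0.05 (Cdk13), -0.02 (Cdk8), 0.02 (Cdk19) and 0.03 (Cdk12), with SEs of 0.08 to 0.09. Cdc40, a splicing factor, was at -0.09 and was the highest member on both arrays within a line, at 0.45 and 0.59.

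Cdc42 is a small GTPase that controls actin and cell polarity. Among the members it had the highest mean of the brown adipose pair whose description names 1 line, 0.33 on the second design, from arrays at 0.28 and 0.38, and its 2 clones both gave 0.33. Without centring this value was -0.04, since every ratio of that comparison then shifts by the same amount and the members' median goes from 0.06 to -0.30. In liver Cdc42 was near 0, at -0.05 and 0.05, then 0.03 and 0.13. Its kinase partner Cdc42bpa read 0.19 and 0.11, then -0.09 and 0.09, in liver, and in brown adipose tissue it read -0.04 and 0.02. The effectors Cdc42ep1, Cdc42ep5, Cdc42se1 and Cdc42se2 had liver means between -0.11 and 0.11.

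The members with other roles held most of the remaining leads. Cdk16, a kinase bound by cyclin Y, was positive on the 4 liver arrays of the first design, at 0.41 and 0.35, then 0.06 and 1.09, with a mean of 0.48 ± 0.19 (1.39-fold; limma unadjusted p = 0.0244, adjusted p = 0.9998). Without the array at 1.09 that mean was 0.22, and with printing blocks centred it was 0.28; the clone lies in block 22, as does the Chek2 clone of that design. On the second design the liver clone read 0.31 and -0.08, then -0.06 and 0.05, with a mean of 0.05 ± 0.08. Brown adipose tissue had Cdk16 at -0.05 and 0.03, then 0.38 and -0.35, on the first design and at 0.30 and 0.26 on the second, both negative without centring.

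Cdca7, a chromatin protein induced by Myc and E2F, was the 1 member of the first design with 1 sign on all liver arrays and the other sign on all brown adipose arrays. It read 0.41 and 0.36, then 0.12 and 0.68, in liver, where the mean was 0.39 ± 0.18. The brown adipose arrays read -0.52 and -0.07, then -0.52 and -0.31, with a mean of -0.36 ± 0.18 that was -0.09 without centring. The tissue difference of 0.75 ± 0.26 did not pass (limma unadjusted p = 0.0137, adjusted p = 0.998), and 17 genes of the design, 0.443%, were positive on all liver arrays and negative on all brown adipose arrays or the reverse. Its relative Cdca7l, on the second design, was lower with Fob3b in red in each pair, at -0.32 and 0.13, then -0.58 and -0.06, in liver, and in brown adipose tissue at -0.42 and 0.03. The liver mean of Cdca7l was -0.21 ± 0.09 (limma unadjusted p = 0.0321, adjusted p = 0.441) and lay between -0.08 and -0.34 when single arrays were left out.

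Ccnb2-ps, a pseudogene copy of cyclin B2, was negative on all 6 arrays of the second design that set pools of 1 number against each other, at -0.35 and -0.05, then -0.24 and -0.21, in liver and at -0.28 and -0.12 in brown adipose tissue. Its liver mean was -0.21 ± 0.08 (1.16-fold; limma unadjusted p = 0.0192, adjusted p = 0.349), and -0.14 with printing blocks centred; the crossed-pool arrays read 0.08 and -0.14. A cDNA spot cannot separate it from its parent where their sequences match, so its identity is uncertain. The spot annotated to Ccnb2 read -0.28 and -0.15, then -0.01 and 0.02, in liver, with brown adipose readings of 0.05 and 0.13. Cdk20, a kinase of primary cilia, read -0.21 and 0.05, then -0.53 and -0.20, in liver, and its brown adipose readings were -0.30 and -0.00055. The liver mean of Cdk20 was -0.22 ± 0.09 (limma unadjusted p = 0.0292, adjusted p = 0.424) and -0.12 with printing blocks centred.

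Cdc34, a ubiquitin-conjugating enzyme that marks cell cycle inhibitors for breakdown, was mostly positive in liver, at 0.28 and -0.07, then 0.94 and 0.49, on the first design (mean 0.41 ± 0.21) and at 0.10 and -0.09, then 0.15 and 0.22, on the second (mean 0.09 ± 0.08, and -0.27 without centring). Brown adipose tissue had Cdc34 at 0.33 and -0.27, then 1.06 and -0.43, where the sign followed the dye, and at 0.30 and 0.21 on the second design. Ccnb1ip1, a ubiquitin ligase known from meiotic recombination, was positive on the 4 liver arrays, at 0.27 and 0.29, then 0.24 and 0.82 (mean 0.40 ± 0.20), and read -0.29 and -0.35, then 0.47 and -0.24, in brown adipose tissue.

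In brown adipose tissue of the first design the highest means belonged to Cdk2ap2 and Mcm3ap, and both followed the dye. Cdk2ap2, named for binding Cdk2, read -0.06 and 0.75, then -0.10 and 0.61, with a mean of 0.30 ± 0.18. Mcm3ap, an mRNA export factor, read -0.12 and 1.24, then -0.50 and 0.57, with a mean of 0.30 ± 0.21 that was -0.04 without the array at 1.24. In liver Cdk2ap2 was positive on all arrays, at 0.20 and 0.34, then 0.46 and 0.14, and Mcm3ap read 0.27 and 0.42, then 0.07 and -0.48. Cdk18 had the same pattern in brown adipose tissue, at -0.06 and 0.97, then -0.53 and 0.44, and read 0.18 and 0.29, then -0.11 and -0.57, in liver. Cdk5rap3, a regulator of protein modification by UFM1, read 0.14 and 0.89, then -0.48 and 0.32, in brown adipose tissue of the first design (mean 0.22 ± 0.21, and -0.08 without pair 1) and 0.31 and 0.18 on the second. In liver Cdk5rap3 read -0.04 and -0.10, then 0.56 and -0.01, on the first design and 0.18 and -0.10, then 0.25 and 0.02, on the second (means 0.10 and 0.09, the latter -0.28 without centring).

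The 10 genes with clones on both designs were thus measured with intervals of different width on RNA labelled as the same pools, and the designs share those pools. Whether the narrower intervals of the second design come with its smaller ratios was not tested. Liver means on the first and second design stood at 0.51 and 0.05 for Chek2, 0.48 and 0.05 for Cdk16, 0.41 and -0.10 for Cdc73 and 0.41 and 0.09 for Cdc34. The median size over the 10 was 0.13 and 0.06, and that over all genes of each design was 0.12 and 0.06. In brown adipose pool pair 1 the values were -0.42 and -0.46 for Cdc73, 0.52 and 0.25 for Cdk5rap3, -0.39 and 0.16 for Chek2 and -0.30 and 0.23 for Mcm3. The leading liver ratios of the first design were small on the second, and the negative Cdc73 ratio of brown adipose pair 1 was of like size on both.

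**Figure D4:**
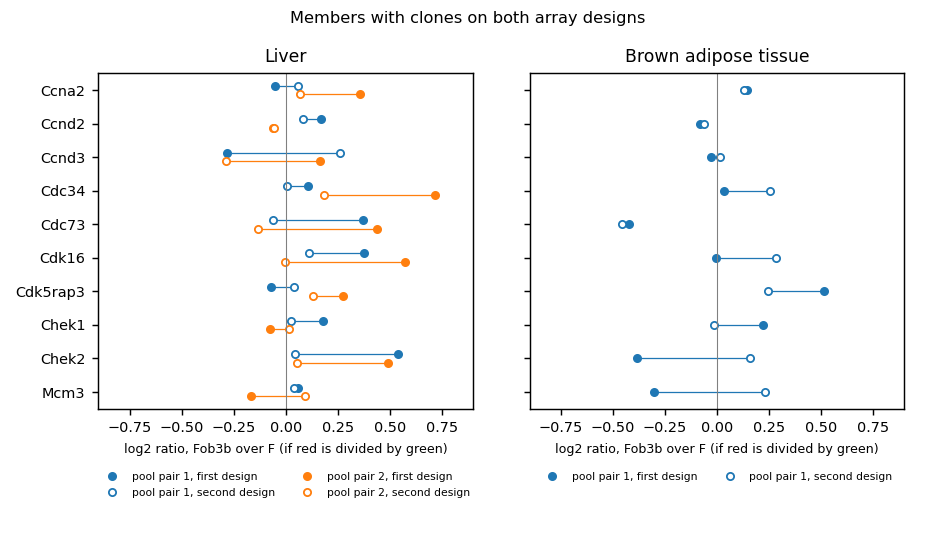
Log2 ratio of the 10 members with clones on both designs in each pool pair, liver left and brown adipose tissue right; filled points are the first design, open points the second, blue pool pair 1 and orange pool pair 2, and a line joins the designs. In liver the filled points of Chek2, Cdk16 and Cdc73 lie at 0.37 to 0.57 and their open points at -0.13 to 0.11.

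Clones of 1 gene on 1 design gave a further check of repeatability. Of 7 members with several clones on the first design, 3 had clones of 1 sign in liver and 2 in brown adipose tissue, and on the second design 3 and 4 of 7 did. The first design had a median range between clones of a gene of 0.20 in liver and 0.12 in brown adipose tissue, the second one of 0.08 and 0.15, which is as large as most of the members' means.

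Arrays with 1 line in both channels showed ratios that members took without a line difference. On liver pool 1 of the F line against itself, members ran from -0.46 (Mcm3ap) to 1.17 (Cdc73), and 4 of 34 were past 1.5-fold, against 9.46% of all genes. The 3 highest were Cdc73 at 1.17, Ccnb1ip1 at 0.99 and Chek2 at 0.98, and the same 3 were the highest on the Fob3b self array, at 0.53, 0.68 and 0.28. These are among the 6 members with the highest liver means of the first design, and they have negative brown adipose means there. The others of the 6 read 0.39 (Cdk16), -0.10 (Cdca7) and -0.02 (Cdc34) on the F self array. Over the 34 members that array correlated at 0.46 with the liver means and at -0.52 with the brown adipose means (all genes 0.33 and -0.20). For the Fob3b self array r was 0.37 and -0.37 (all genes 0.21 and -0.08). Both channels of a self array are labelled as the same RNA, though the description of the Fob3b one names both lines. The sign on a self array is thus that of the dye and not of a line. The part of the self-array signal in the line ratios was not tested. On the second design, members ran from -0.32 (Cdk12) to 0.45 (Cdc40) between the Fob3b pools and from -0.34 (Cdk19) to 0.59 (Cdc40) between the F pools. The crossed-pool arrays, which do set the lines against each other, ran from -0.54 (Cdca7l) to 0.51 (Cdk12).

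**Figure D5:**
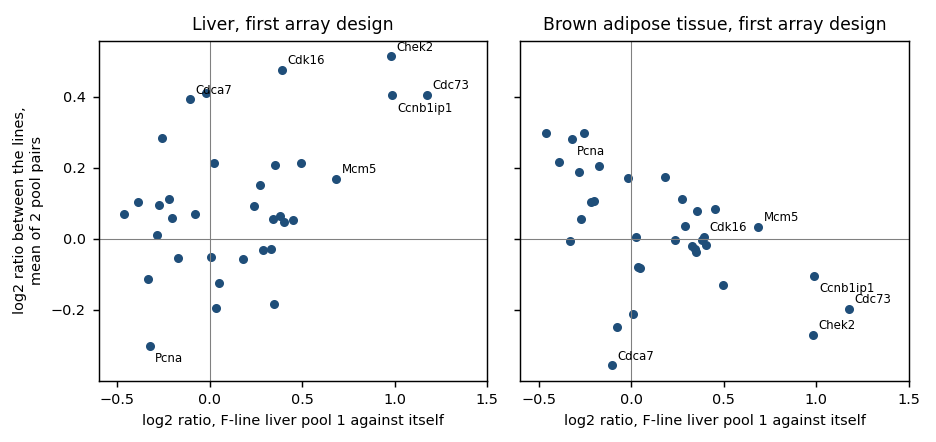
Log2 ratio between the lines (mean of 2 pool pairs, first design) in liver, left, and brown adipose tissue, right, against the log2 ratio of the same genes with F-line liver pool 1 in both channels; each of the 34 points is a member. Chek2, Cdc73 and Ccnb1ip1 lie farthest right, at 0.98 to 1.17, and are positive in liver and negative in brown adipose tissue.

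Other genes of the cycle's machinery gave no call in the tested comparisons. Of the replication fork and nucleotide supply list, the first design measured 27 of 50 genes and the second 16, and 0 passed in either direction (limma, adjusted p under 0.05) in any tested comparison; 1 in liver of the first design, 0 in brown adipose tissue and 2 in liver of the second had an unadjusted p under 0.05. Its median was 0.0029 in liver of the first design (15 of 27 positive) and 0.01 on the second (9 of 16). Hells, a chromatin remodeller that works with Cdca7, came nearest, at -0.33 ± 0.08 in liver of the second design (limma adjusted p = 0.107). Orc2, a subunit of the origin recognition complex, was at -0.21 ± 0.08 there, and Mcmbp, a partner of the Mcm ring, at -0.67 ± 0.24 in liver of the first design, with pool pairs at -1.18 and -0.15.

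The mitosis and chromosome segregation list had 61 genes, of which the first design measured 30 and the second 31, with 0 called in either direction, 1 with an unadjusted p under 0.05 in liver of each design and 0 in brown adipose tissue, and liver medians of 0.02 and -0.01. Wee1, the kinase that holds Cdk1 inactive, read -0.36 and -0.27 in liver pairs 1 and 2 of the second design (mean -0.31 ± 0.08, limma adjusted p = 0.114) and -0.68 in its brown adipose pair. Birc5, survivin of the passenger complex, was at 0.45 ± 0.19 in liver of the first design. Of the Cdk inhibitors, Rb and E2F genes and other cyclins, 17 of 49 were measured on each design, with 0 called, 0 with an unadjusted p under 0.05 in liver or brown adipose tissue, and liver medians of -0.01 and 0.03. E2f8, a repressor of the cycle, was at -0.41 ± 0.20 in liver of the first design, and Gadd45g, a stress gene, at -0.42 ± 0.22 in brown adipose tissue.

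Few markers of other cell types were on the arrays, and 0 were called. In liver of the first design the 3 measured hepatocyte genes of 9 had negative means (-0.74 to -0.15), but their pool pairs differed. Alb was at -1.26 in pool pair 1 and -0.21 in pair 2, Ttr at -0.47 and 0.17, and Apoa1 at -0.65 and 0.31. The macrophage gene Lyz2 (1 of 7) was at -0.44 and the endothelial gene Cdh5 (1 of 5) at 0.64. In brown adipose tissue 2 of 8 skeletal muscle genes were measured on each design. Means of the 2 pool pairs were -0.58 and -0.47 (Tpm2 and Actn3) on the first, and pool pair 1 alone gave 0.74 and 0.69 (Tpm2 and Mylpf) on the second. In pool pair 1 Tpm2 was at -0.89 on the first design, so its sign differed between designs on RNA labelled as the same pools. The lymphocyte gene Ighm (1 of 8) was at 0.21 in liver and 0.28 in brown adipose tissue of the second design, the erythroid genes Alas2 and Slc4a1 (2 of 5) at -0.06 and 0.16 in liver, and the brown adipocyte gene Elovl3 (1 of 10) at 0.02 and -0.05. Their part in the members' ratios was not tested.

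The promoters of these genes were searched for short sequence words that the choice by symbol did not use. RefSeq promoters of mouse build GRCm38.p6 (250 bases before to 50 after a transcript start) were matched for 54 of the 63 members. An E2F word (TTTCCCGC, TTTGGCGC, TTTCGCGC or TTTGCCGC on either strand) was found in 11 of 54 members (20.4%) and in 704 of 27025 genes (2.60%). It was in 5 of 9 replication members (Cdc6, Mcm3, Mcm5, Mcm6 and Mcm7) and in 0 of 6 mitosis members. The short CHR word (TTTGAA or TTCGAA, either strand), known from genes of mitosis, was in 5 of 6 mitosis members (Cdc20, Cdca3, Cdca5, Cdca8 and Cdk5rap2), in 15 of 54 members (27.8%) and in 21.7% of all genes. CCAAT, on either strand, was in 31 of 54 members (57.4%) and in 41.1% of all genes. No word searched contains another, but E2F words can overlap; a match is not a binding site, and genes with several promoters count if any window holds the word.

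The following stretches, which lie before the start on the strand of the gene, belong to Mcm6, Cdk2, Chek2 and Cdca7, members described above for their ratios, and to Cdc20, shown as an example of the CHR word in a mitosis gene. Capitals mark the E2F word, or the CHR word for Cdc20, and overlapping E2F words form 1 run of capitals.
Mcm6 (chr1:128359774-128359845, minus strand): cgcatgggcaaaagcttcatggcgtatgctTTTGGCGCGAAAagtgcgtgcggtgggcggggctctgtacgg
Mcm6, nearer the start (chr1:128359715-128359782, minus strand): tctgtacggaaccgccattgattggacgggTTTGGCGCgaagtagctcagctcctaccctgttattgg
Cdk2 (chr10:128705154-128705221, minus strand): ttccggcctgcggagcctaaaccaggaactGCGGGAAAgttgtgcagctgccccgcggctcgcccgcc
Chek2 (chr5:110839801-110839868, plus strand): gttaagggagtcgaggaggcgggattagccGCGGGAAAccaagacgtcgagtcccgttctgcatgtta
Cdca7 (chr2:72476118-72476185, plus strand): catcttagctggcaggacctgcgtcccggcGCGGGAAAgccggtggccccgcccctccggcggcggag
Cdc20 (chr4:118437344-118437391, minus strand): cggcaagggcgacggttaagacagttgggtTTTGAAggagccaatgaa

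Members that share the E2F word did not share a direction between the lines. In liver of the second design Mcm6, with 3 E2F words in 2 places, was the highest member at 0.18 and Cdk2, with 1 word, was among the lowest at -0.19. Over the members with the word, the liver median was 0.17 (7 genes, 4 positive) on the first design and 0.06 (6 genes, 5 positive) on the second, beside 0.07 (23 genes, 16 positive) and -0.02 (26 genes, 10 positive) for those without it. In brown adipose tissue the medians with and without were -0.08 and 0.05 on the first design and 0.13 and 0.07 on the second. Ranges overlapped in each case, and these are descriptions without a test.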

How the data were processed

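Log ratios of 20 two-channel spotted cDNA arrays were used as deposited. The deposited values are read as log2 ratios of the dyes; how the authors made them (scanning, background, normalization, log base, numerator) is not stated in the sources at hand, and no intensities come with them. The 1920 control spots of each design were left out, the paired spots of a clone (160 rows apart) averaged, and each array centred on its median clone. Ratios of arrays with both lines were turned to Fob3b over F by the channel labels, also where a description disagrees with them. Arrays of 1 line were not turned. Clones of 1 gene were averaged, then both dye orientations of a pool pair, so n = 2 pool pairs. The test per gene was that of limma 3.58.1, run in R 4.3.3 (lmFit, eBayes, tissue as factor, Benjamini-Hochberg over all genes of a design, two-sided); brown adipose tissue of the second design has 1 pool pair and no test. The steps were tested on simulated data. Clones with several genes were left out, 1 and 2 of them holding a member's symbol.

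Members and lists were chosen with earlier results of these data known. Given with every array were, per tested comparison and side, the 4 members of smallest unadjusted p, the 4 per side with the largest mean of 1 sign where there was no test, and all members on both designs; other lists gave up to 3 genes. Arrays hold no depth, and their number limits the precision. Alternatives covered centring, scaling, clones, dye swaps, blocks and left-out arrays.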

Additional observations from a re-analysis of the deposited data

Results flagged for a closer look

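In 7 of the 107 series of 4 arrays examined (each member, tissue and design with 4 arrays), 1 array stood far from the other 3, and in none of 3 series of the members' median did one; chance gives about 1 in 20 such series. In liver of the first design the array of pool pair 2 with Fob3b in green stood apart for Ccnb1ip1 (0.82, next value 0.29), Cdc20 (-0.76, next 0.27) and Pcna (-1.05, next -0.10), and that with Fob3b in red for Cdk5rap3 (0.56, next -0.01). In brown adipose tissue of that design it was pool pair 2 with Fob3b in red for Ccnb1ip1 (0.47, next -0.24). In liver of the second design pool pair 1 stood apart for Ccnd1 (-0.21 with Fob3b in red, next 0.08) and for Cdk8 (-0.13 with Fob3b in green, next 0.0058).

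Cdca7 was the 1 member of the first design positive on 4 of 4 liver arrays and negative on 4 of 4 brown adipose arrays, with a difference of 0.75 (limma adjusted p = 0.998); 17 genes of the design, 0.443%, had such opposed signs.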

How the results depend on the processing

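No member passed the threshold in any of the 4 tested comparisons under any alternative run. The calls over all genes moved in liver of the second design, from 11 genes to 67 without centring, 27 with printing blocks centred, 40 without pair 1 with Fob3b in red, and 0 with arrays scaled, with each array as a replicate, with the crossed-pool arrays added, or without any of the other 3 arrays; leaving out a pool pair leaves no residual degrees of freedom there and gives values without a test. Counts from the first design stayed at 0 apart from 15 genes in liver without pair 2 and 1 to 3 in brown adipose tissue under 5 alternatives.

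The members' median changed by more than its spread as follows. That spread is the SD between pool pairs, 0.0088 in liver and 0.028 in brown adipose tissue of the first design. In liver of the second design it was 0.00030, which nearly any change exceeds. For brown adipose tissue of the second design, with 1 pool pair, it is the SD between the 2 arrays, 0.013. Without centring it was -0.020 in liver and 0.27 in brown adipose tissue of the first design and -0.36 and -0.30 on the second, with all genes moving alike (to -0.11, 0.30 and -0.36 where tested). Printing blocks gave 0.036 in liver of the first design and 0.025 on the second, scaling 0.091 and -0.0023, and adding the crossed-pool arrays 0.0050. Leaving out single arrays or pairs gave -0.0052 to 0.11 and -0.020 to 0.012 in liver of the first and second design, and -0.077 to 0.024 and 0.042 to 0.061 in brown adipose tissue. On the control arrays without centring it was 1.03 on the Fob3b self array, -0.25 and 0.090 on the crossed arrays with Fob3b pool 1 and 2, and 0.24 between the F pools; these were chosen after seeing the data.

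Without centring every ratio of a comparison shifts by the same amount. The median of all genes went from 0.04 to 0.30 in brown adipose tissue of the first design and from 0.0050 to -0.36 in liver of the second. With that shift, signs reversed for Cdca3 (0.021) and Mcm3 (0.058) in the former. In the latter they reversed for Mcm6 (-0.19), Cdc34 (-0.27), Cdk5rap3 (-0.28) and Cdc42bpa (-0.29). In brown adipose tissue of the second design the highest member mean, that of Cdc42, turned negative, so every member mean was negative there. With single arrays or pairs left out, ranges crossed 0 in liver of the first design for Cdc73 (-0.090 to 0.90), Cdk7 (-0.54 to 0.15) and Cdc6 (-0.31 to 0.061), in brown adipose tissue for Mcm3ap (-0.041 to 0.64), Cdk5rap3 (-0.080 to 0.52) and Cdca3 (-0.54 to 0.048), and in the tissue difference for Cdk18 (-0.55 to 0.031), Ccnd3 (-0.53 to 0.069) and Mcm3ap (-0.57 to 0.11). The cause of the changes with arrays or pairs left out was not tested.

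With the pool number as a replicate block across tissues on the first design, 0 members were called and no call changed. The labels do not say that a number pairs the tissues; pool 1 minus pool 2 correlated at 0.37 between liver and brown adipose tissue over 3838 genes. Signal over background could not be checked, as intensities are not part of the values.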
